A study of Mus musculus with 12 samples.

Results

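Cathepsins are the proteases of lysosomes and of the lytic granules of killer lymphocytes. 8 mouse cathepsin genes, Ctsb, Ctsc, Ctsd, Ctsh, Ctsl, Ctss, Ctsw and Ctsz, were followed through tumour-derived NK cells and CD8 T cells. They were picked by name from a count table of 54232 genes, which held 23 protein-coding genes named as cathepsins. Measured values entered the choice as well: Ctsc had stood out for its difference between kinase-inactive and wild-type NK cells, so that contrast is given here as a description and without a test. All 8 passed the filter on low counts, as did 13129 genes in total. Of the other 15 cathepsins, 12 had 0 counts in every library and 3, Ctsa, Ctse and Ctso, passed the filter.

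Most cathepsins are cysteine proteases that are made as inactive precursors, carried to the lysosome and activated there. Cathepsin C, also called dipeptidyl peptidase I, removes the leading dipeptide from pro-granzymes and from the serine proteases of neutrophils and mast cells, the step that makes them active. Cathepsin W is found mainly in NK cells and CD8 T cells, whereas cathepsins B, L, S, H and Z are abundant in macrophages and other phagocytes. Cathepsin S trims the invariant chain of MHC class II molecules, and cathepsin D is a lysosomal aspartic protease made by nearly every cell.

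The 12 libraries came from subcutaneous MC38 tumours, grown from a mouse colon adenocarcinoma line injected into both flanks, and taken between day 8 and day 10. From each, 300 cells were sorted as NK cells (CD45+ CD3ε- NK1.1+) or CD8 T cells (CD45+ CD3ε+ CD8a+). Mice on the C57BL/6N background, 6 to 12 weeks old, were wild type (WT), lacked TYK2 in all cells (Tyk2-/-, here KO) or carried the kinase-inactive Tyk2 K923E allele in all cells (here KE). TYK2 is a Janus kinase that relays interferon and interleukin-12 family signals. Each of the 6 groups had 2 libraries. Nothing in the sources used here says whether the 2 came from separate mice, so the p-values measure the spread between these libraries, which may be technical.

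The libraries held 10378761 to 14732882 counts and 12776 to 14015 detected genes, and a gene with 0 counts could reach 0.204 to 0.289 counts per 1000000 (CPM) at a floor of 3 counts. The sort markers matched the labels: Cd8a lay between 2603 and 3981 CPM in CD8 libraries and between 2.69 and 4.80 in NK libraries, and Ncr1 between 813 and 2408 in NK libraries and at most 1.96 in CD8 libraries. T cell markers summed to 10808 CPM or more in CD8 libraries and 357 or less in NK libraries, and NK cell markers to 8512 or more in NK and 497 or less in CD8 libraries. Tyk2 RNA, counted over all its exons, did not separate the genotypes, at 44.2 to 83.7 CPM in WT, 58.4 to 112 in libraries labelled KO and 44.8 to 125 in KE, so KO and KE mean the libraries so labelled. The NK libraries differed in macrophage RNA. The sum of 22 monocyte and macrophage markers was 17782 and 16141 CPM in the WT libraries, 8177 and 258 in KO replicates 1 and 2, and 365 and 674 in KE replicates 1 and 2. All 6 CD8 libraries lay between 81.1 and 699.

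Promoter windows of RefSeq (GRCm38.p6, 250 bases before to 50 after the start) were at hand for 5 of the 8 genes, and 3 are printed for genes that differ in the values below. Both Ctsc and Ctss lay lower in mutant than in WT NK libraries, but between the 2 KO NK libraries Ctsc differed 1.23-fold and Ctss 3.55-fold, and Ctsd varied least of the 8 over all libraries. Both strands were searched for 4 short motifs, and capitals mark the matches. These were GAAANNGAAA, of the kind bound by interferon-regulated complexes, which 3.44% of 32851 windows held; TTCNNNGAA, of the kind bound by STAT dimers (8.30%); GAGGAAGT, of the kind bound by PU.1, the macrophage factor (3.20%); and CACGTG, of the kind bound by TFEB and related regulators of lysosomal genes (7.15%).
Ctsc, chr7:88277835-88278134, plus strand: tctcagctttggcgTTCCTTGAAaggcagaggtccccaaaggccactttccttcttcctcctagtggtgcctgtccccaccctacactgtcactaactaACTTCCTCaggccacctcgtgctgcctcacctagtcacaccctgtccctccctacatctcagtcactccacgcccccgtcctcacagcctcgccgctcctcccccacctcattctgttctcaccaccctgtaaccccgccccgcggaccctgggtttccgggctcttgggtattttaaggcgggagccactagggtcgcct
Ctss, chr3:95526536-95526835, plus strand: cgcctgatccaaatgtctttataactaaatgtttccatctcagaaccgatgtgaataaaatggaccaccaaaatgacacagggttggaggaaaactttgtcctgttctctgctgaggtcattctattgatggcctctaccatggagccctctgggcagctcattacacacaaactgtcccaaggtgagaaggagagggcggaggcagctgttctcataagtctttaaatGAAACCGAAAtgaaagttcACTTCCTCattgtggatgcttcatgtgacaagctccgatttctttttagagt
Ctsd, chr7:142387778-142388077, minus strand: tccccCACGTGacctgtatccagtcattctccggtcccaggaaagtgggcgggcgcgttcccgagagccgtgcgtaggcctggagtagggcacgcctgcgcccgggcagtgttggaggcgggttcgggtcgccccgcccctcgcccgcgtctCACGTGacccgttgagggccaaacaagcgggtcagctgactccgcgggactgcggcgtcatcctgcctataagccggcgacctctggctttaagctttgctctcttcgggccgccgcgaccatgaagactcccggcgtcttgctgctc
The Ctsc window had a TTCNNNGAA match beginning 236 bases and a GAGGAAGT match, on the other strand, beginning 151 bases before the start. The Ctss window had a GAAANNGAAA match 21 bases before the start and a GAGGAAGT match on the other strand that ran across it. Ctsd had 2 CACGTG matches, 245 and 98 bases before the start. These are matches of letters and no evidence of binding. The Ctsl window had 1 CACGTG match and that of Ctsz held none of the motifs.

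**Figure D1:**
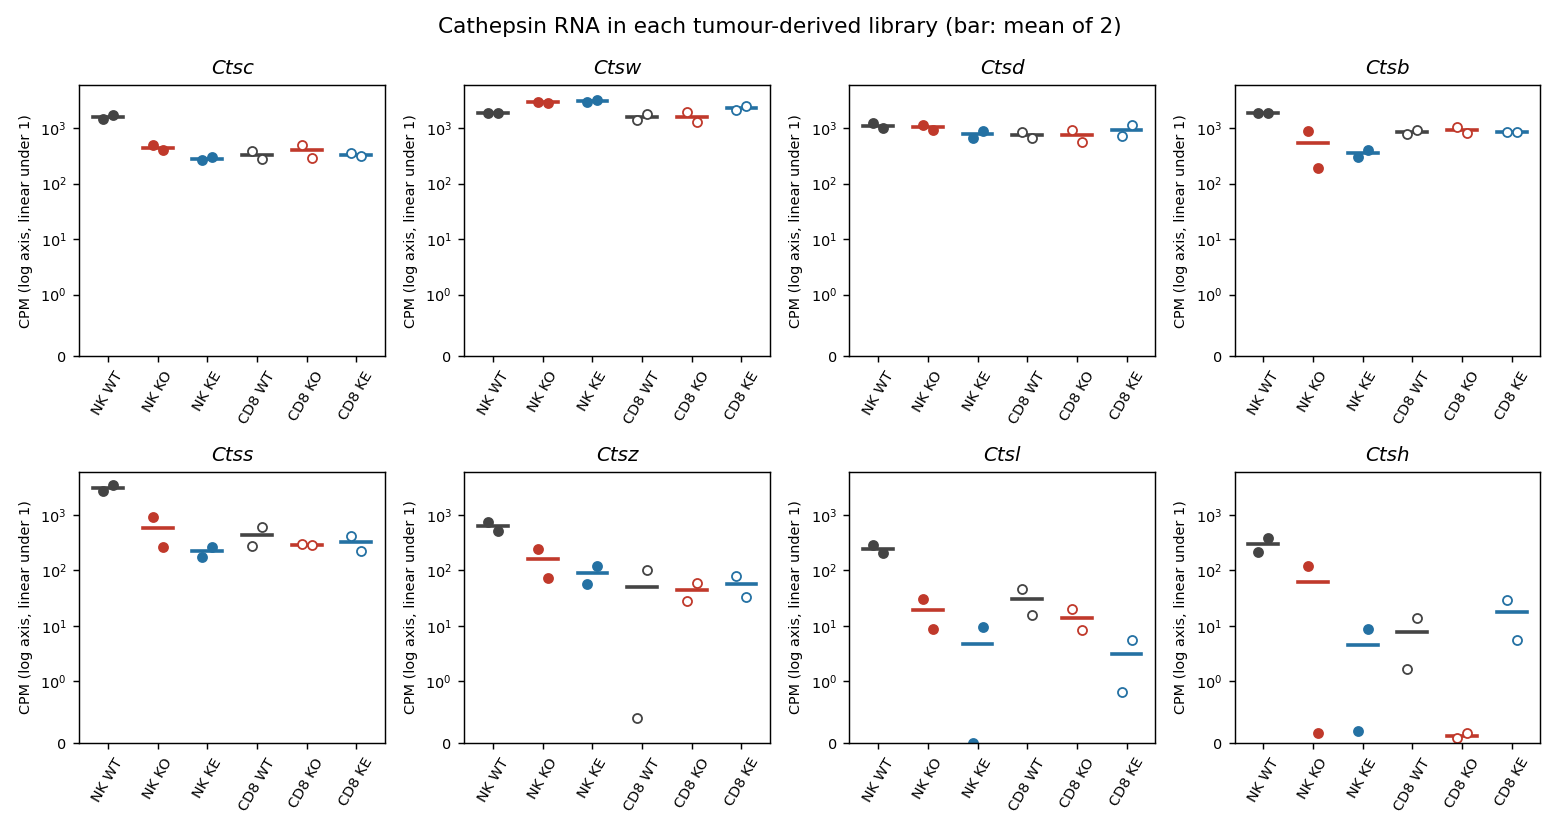
CPM of each cathepsin in the 12 libraries, on an axis that is logarithmic above 1 and linear below it. Filled points are NK and open points CD8 libraries, grey WT, red KO and blue KE, and bars are means of 2. Ctsc lay at 1457 and 1698 CPM in WT NK libraries and between 270 and 499 in the other 10.

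Ctsc had its highest RNA in WT NK cells, where it reached 1457 and 1698 CPM. The gene lies on chromosome 7 (88278085 to 88310888, plus strand, GRCm38) and shares no exon sequence with another annotated gene. The KO NK libraries held 488 and 398 CPM and the KE NK libraries 270 and 297. Its values in CD8 T cells were 388 and 281 in WT, 499 and 294 in KO, then 349 and 320 in KE. Both WT NK libraries thus stood above all 10 others, and the mutant NK libraries overlapped with the CD8 libraries.

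Ctsw, whose protein is found mainly in NK cells and CD8 T cells, showed the opposite order in NK cells. It was 1884 and 1886 CPM in WT, 2984 and 2835 in KO, then 3002 and 3229 in KE. All 4 mutant NK libraries lay above both WT libraries. Some genes that mark NK cells were higher in them too: Ncr1 was 813 and 931 CPM in WT and 1311 to 2408 in the 4 mutant libraries, and Klrb1c, which encodes NK1.1, 1028 and 1429 against 1658 to 2351. Others were not. Of 9 listed NK cell markers 6 had a higher and 3 a lower fitted mean in KO than in WT, and 5 a higher and 4 a lower one in KE. The marker sums overlapped, at 8512 and 10069 CPM in WT and 12923 and 9896 in KO. The part of these markers in the Ctsw difference was not tested. In CD8 T cells Ctsw was 1386 and 1828 in WT, 1933 and 1300 in KO, then 2099 and 2538 in KE, so that KO and WT overlapped and both KE libraries were higher than both WT libraries. Its gene is on chromosome 19 (5465043 to 5468507, minus strand).

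Ctsd, the aspartic protease, varied least of all 8 between its lowest and highest library, 2.17-fold. In NK cells it was 1218 and 1001 CPM in WT, 1141 and 944 in KO, then 673 and 905 in KE. The CD8 T cells had 855 and 676, 929 and 562, and 717 and 1118 in the same order of genotypes. The KE NK libraries lay below those of WT and KO, which overlapped, and in CD8 T cells all 3 genotypes overlapped. A gene model on the same strand, Gm49369, covers 31.5% of the Ctsd exon bases, so reads there could be shared between the 2 entries.

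Ctsb, a lysosomal cysteine protease, was 1863 and 1842 CPM in WT NK libraries. In KO it was 874 and 191, and in KE 298 and 410. The CD8 libraries lay between 770 and 1054, with no genotype apart. Ctsb was therefore lower in the KE NK libraries and in KO replicate 2 than in any CD8 library, while KO replicate 1 lay inside the CD8 range. The opposite-strand gene Fdft1 covers 16.3% of its exon bases, and whether counting used the strand is not given in the sources used here.

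Ctss, the invariant chain protease, had 2740 and 3414 CPM in WT NK libraries. KO NK libraries held 921 and 259 and KE NK libraries 176 and 263. CD8 libraries lay between 224 and 601. As for Ctsb, the 2 KO replicates lay far apart, and the lower one was within the range of KE.

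Ctsz, a carboxypeptidase, was 740 and 509 CPM in WT NK libraries, 242 and 72.9 in KO, then 57.6 and 119 in KE. Among CD8 libraries it ranged from 0.407 in WT replicate 1 to 100.4 in WT replicate 2. The WT CD8 libraries therefore enclosed the other 4 CD8 libraries. Ctsl, another lysosomal cysteine protease, was 286 and 209 in WT NK libraries, 30.0 and 8.98 in KO, then 0 and 9.50 in KE, against 0.829 to 45.4 in CD8 T cells. An antisense gene, Gm47123, overlaps 28.2% of the Ctsl exon bases. Ctsh, an aminopeptidase, was 217 and 377 in WT NK libraries, 122 and 0.157 in KO, then 0.193 and 8.71 in KE, against 0.0754 to 29.4 in CD8 T cells.

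**Figure D2:**
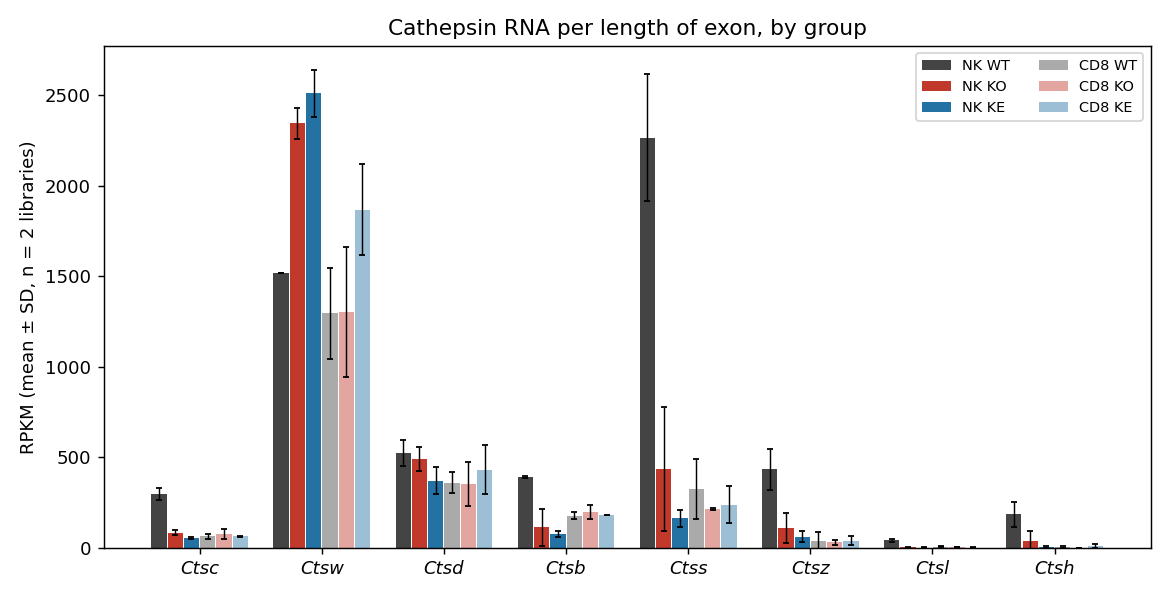
RPKM (CPM per kilobase of exon) of each cathepsin by group, as mean and SD of 2 libraries. Dark bars are NK and pale bars CD8 groups. Ctss stood highest in WT NK cells and Ctsw in the other 5 groups.

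Levels of different genes were compared per length of exon, in RPKM. In WT NK cells Ctss led at 2266 ± 351 (SD, n = 2), followed by Ctsw at 1519 ± 1.19, Ctsd at 522 ± 72.1, Ctsz at 433 ± 113, Ctsb at 391 ± 3.16 and Ctsc at 296 ± 32.0. Ctsh (184 ± 70.1) and Ctsl (40.1 ± 8.76) came last. Ctsd and Ctsz, like Ctsz and Ctsb, differed by less than the larger of their SDs. In KO NK cells the order began with Ctsw (2344 ± 85.0), Ctsd (490 ± 65.6) and Ctss (435 ± 345), and Ctsc lay at 83.1 ± 11.9. KE NK cells had 2510 ± 129 for Ctsw, 371 ± 77.0 for Ctsd, 162 ± 45.6 for Ctss and 53.2 ± 3.50 for Ctsc. In all 3 CD8 groups Ctsw led as well, at 1295 ± 252 in WT, and Ctsc ranked 5 of 8, at 62.8 ± 14.3 in WT.

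In KO against WT NK cells the question is whether loss of TYK2 changes these genes. 6 of the 8, Ctsb, Ctsc, Ctsh, Ctsl, Ctss and Ctsz, had both KO libraries below both WT libraries, and Ctsw had both above. Among all genes tested, 16.8% lay below and 18.9% above without overlap. The largest change relative to its error was that of Ctsc, with a log2 fold change of -1.93 ± 0.29 (SE). It was followed by Ctss at -2.47 ± 0.56 and Ctsb at -1.89 ± 0.52. The less precise members were Ctsz at -2.09 ± 1.42, Ctsl at -3.76 ± 1.65 and Ctsh at -2.36 ± 1.97. Over 19 alternatives Ctsz ranged from -3.22 to -0.48, Ctsl from -4.91 to -1.59 and Ctsh from -10.90 to 3.15. Ctsd was at -0.19 ± 0.31 and Ctsw at 0.52 ± 0.21. The median of the 8 was -2.01, beside -0.01 over all genes tested.

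A gene was called where its false discovery rate (FDR) in edgeR's quasi-likelihood test was under 0.05 and its log2 fold change at least 1 in size. No member was called here, and 0% of all genes were. The FDR of Ctsc was 0.196, of Ctss 0.429 and of Ctsb 0.582. 5 members had an unadjusted p under 0.05, as did 6.35% of all genes. DESeq2 called 3 members lower, Ctsc, Ctss and Ctsb, and 2.84% of all genes. The WT NK libraries were also part of the contrast by which Ctsc was chosen, so these values are not independent of that choice. With 1 KO library left out the other is alone in its group and is assumed to vary like the libraries of the other groups. Without KO replicate 1, edgeR called Ctsb, at -3.40, and Ctss was -3.68. Without KO replicate 2 these were -1.17 and -1.82, whereas Ctsc was -2.10 and -1.78.

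**Figure D3:**
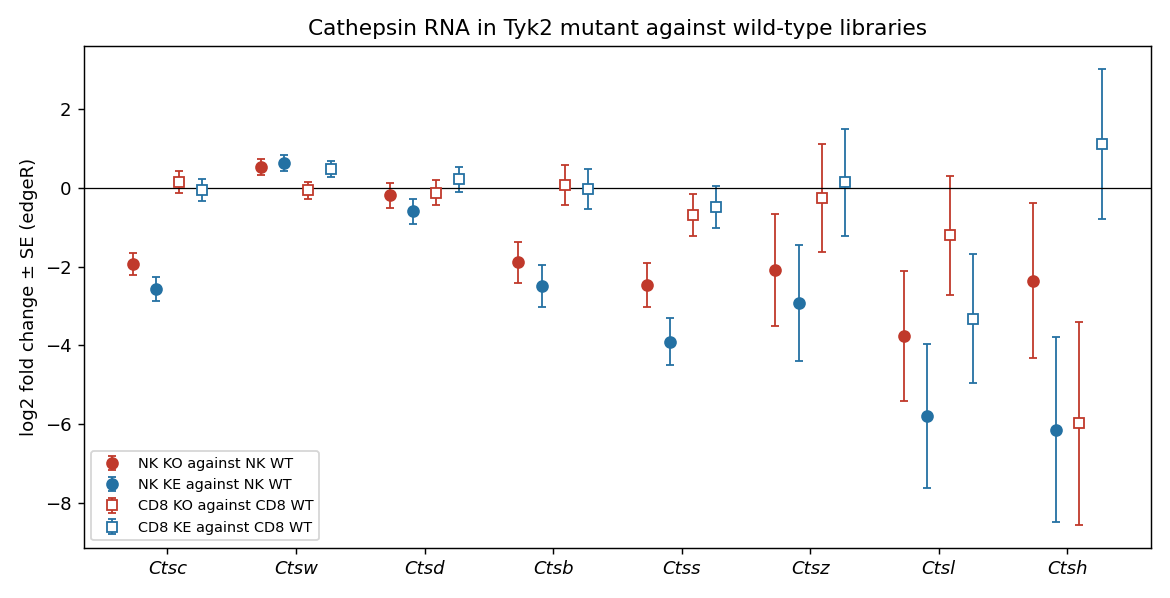
Log2 fold change with its SE (edgeR) of each cathepsin in the 4 mutant against wild-type comparisons. Filled circles are NK and open squares CD8 comparisons, red KO and blue KE. For Ctsc the NK values were -1.93 (KO) and -2.57 (KE), those of CD8 T cells 0.16 and -0.06.

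The KE against WT contrast in NK cells contained the difference for which Ctsc was chosen. Its log2 fold change was -2.57 ± 0.30 (SE). Ctss was at -3.90 ± 0.60, Ctsb at -2.48 ± 0.54, Ctsz at -2.93 ± 1.47, Ctsl at -5.80 ± 1.83, Ctsh at -6.14 ± 2.35, Ctsd at -0.59 ± 0.32 and Ctsw at 0.63 ± 0.21. Over 19 alternatives Ctsz ranged from -3.53 to -0.79, Ctsl from -14.65 to -3.48 and Ctsh from -10.60 to 3.41. 7 members had both KE libraries below both WT libraries, beside 17% of all genes, and nothing is read from that count. edgeR called 0% and DESeq2 2.94% of all genes.

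KO and KE NK cells were compared directly. Every member except Ctsw had a higher fitted mean in KO than in KE, among them Ctsc by 0.64 ± 0.28 on the log2 scale and Ctss by 1.43 ± 0.54. edgeR called no member and 0% of all genes, with 2 members at an unadjusted p under 0.05, and DESeq2 called no member and 1.56% of all genes. The KE NK libraries were part of the choice of Ctsc, so its value here is a description. That of Ctss was 0.22 without KO replicate 1 and 2.08 without KO replicate 2. KO replicate 1, the mutant NK library with the most macrophage RNA, was the highest of the 4 mutant NK libraries for every member but Ctsw.

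Each member was set beside the macrophage RNA of its library. In bulk libraries fewer cells of a type and less RNA per cell cannot be told apart. The 2 KO NK libraries offered a contrast within a genotype, because their macrophage marker sums differed 31.6-fold. Between them Ctsb differed 4.58-fold, Ctss 3.55-fold, Ctsl 3.34-fold and Ctsz 3.32-fold, in each case higher where the markers were higher. Ctsh had 1506 counts in KO replicate 1 and 2 counts, under the floor, in KO replicate 2. Ctsc differed 1.23-fold, Ctsd 1.21-fold and Ctsw 1.05-fold. Not every macrophage gene set these libraries apart: Csf1r was 0.162 and 0.236 CPM in KO replicates 1 and 2, against 282 and 301 in WT. A member that followed such genes would be even between the KO replicates too, so this pair cannot decide that question.

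**Figure D4:**
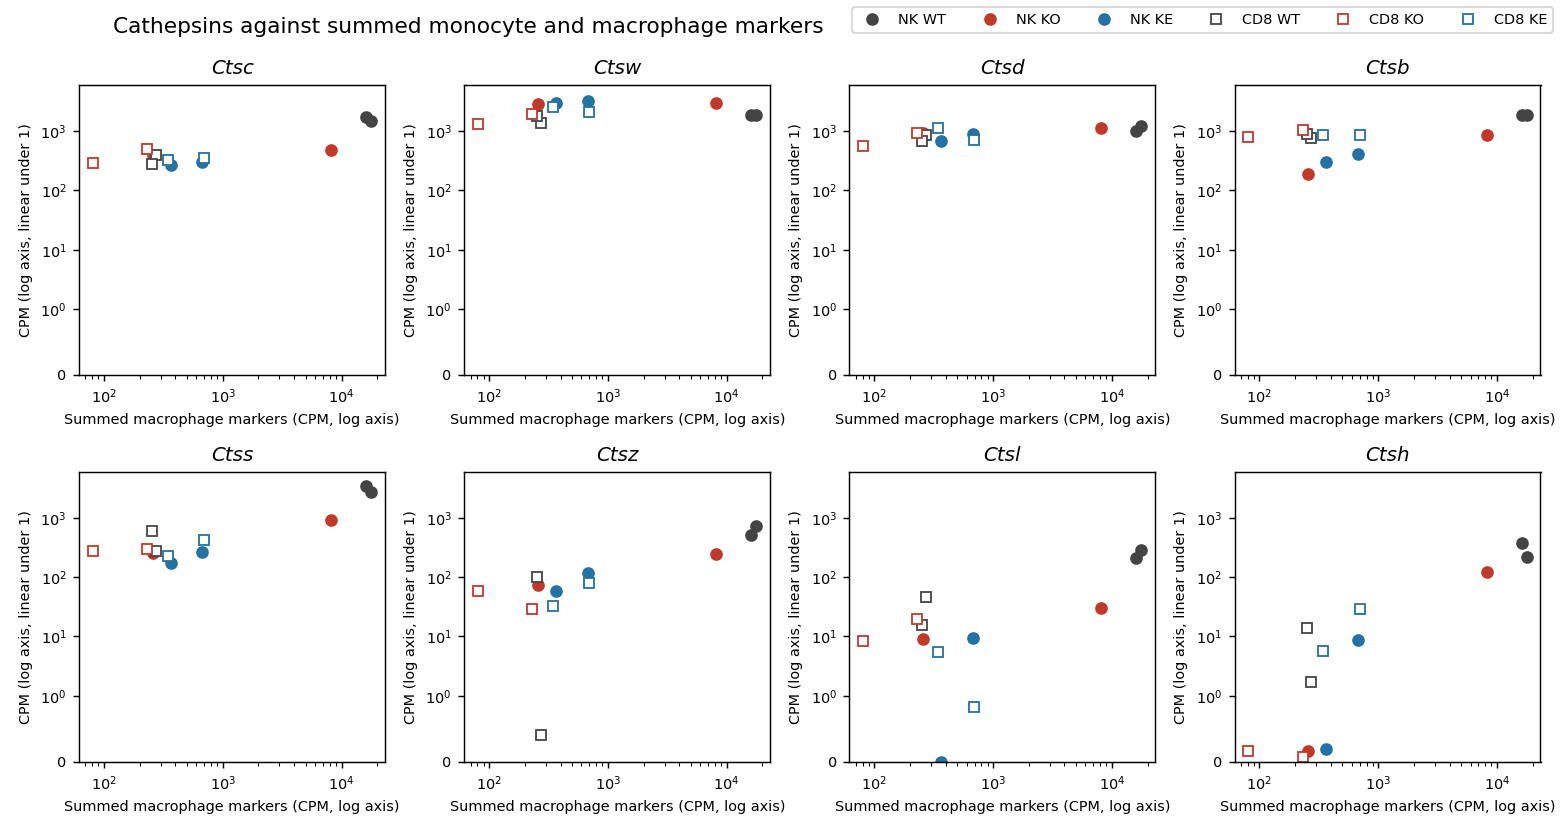
CPM of each cathepsin against the summed CPM of 22 monocyte and macrophage markers, for the 12 libraries, with logarithmic axes (linear under 1 CPM for the cathepsins). Ctsb followed the marker sum in the 6 NK libraries, and Ctsc was low in KO replicate 1, at 488 CPM, where the marker sum was 8177 CPM.

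KO replicate 1 was also set beside the WT NK libraries. Its marker sum was lower by 2.17-fold and 1.97-fold than in WT replicates 1 and 2. Ctsb was lower by 2.13-fold and 2.11-fold, about as much as the marker sum. Ctsc was lower by 2.99-fold and 3.48-fold, Ctss by 2.97-fold and 3.71-fold, and Ctsl by 9.51-fold and 6.97-fold. Ctsz was lower by 3.06-fold and 2.10-fold and Ctsh by 1.78-fold and 3.09-fold. The mean log2 CPM of the same markers was 5.44 in KO replicate 1 against 8.27 and 8.17 in WT, a larger fall than that of their sum. Which members fell more than the markers therefore depends on how the markers are summarized. The order of the 6 NK libraries by Ctsb was the same as by the marker sum in 6 of 6 positions. Ctsc and Ctsd each matched in 1 position, with a Spearman's rho of 0.771 to the marker sum over these 6 libraries. Ctss matched in 2 (rho 0.886), Ctsh, Ctsl and Ctsz in 4 each (rho 0.943), and Ctsw in 1, with a rho of -0.6.

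The macrophage list was not uniform in KO replicate 1, and genes at both ends and in between are named after their values were seen. Lyz2, the lysozyme of myeloid cells, was 3503 CPM there, above the WT libraries at 2416 and 2091. Csf1r, the receptor that macrophages need to survive, was 0.162 CPM there against 282 and 301 in WT, and Adgre1, which encodes F4/80, was 8.93 against 275 and 249. Between these lay Apoe, at 1895 against 6867 and 5423, C1qb, at 986 against 2344 and 2286, C1qa, at 283 against 1209 and 1064, and Cd68, at 243 against 556 and 377. 1 of the 22 markers was at 0 in this library, 6 in KO replicate 2, 5 in KE replicate 1, 1 in KE replicate 2 and none in WT. Neutrophil markers summed to 26.6 CPM at most in any NK library, tumour epithelial markers to 53.2, stromal markers to 286 and B cell markers to 781. The last 2 sums rested on few genes. In KE replicate 1, with the highest B cell sum, 6 of 7 markers were at 0. In WT replicate 1, with the highest stromal sum, 6 of 10 were at 0 and 2 reached 10 CPM. Dendritic cell and MHC class II markers summed to 2027 and 3915 in WT, 326 to 4256 in KO and 122 to 313 in KE NK libraries.

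Fits were also made with the mean log2 CPM of the macrophage markers as a covariate. In KO against WT NK cells Ctsb was then at -0.46 ± 0.38 (SE), Ctsz at -0.48 ± 2.22, Ctss at -1.003 ± 0.493, Ctsc at -1.59 ± 0.46 and Ctsl at -1.59 ± 2.88. Ctsd was at 0.084 ± 0.507, Ctsw at 0.61 ± 0.33 and Ctsh at 3.15 ± 1.28, so that Ctsd and Ctsh took the opposite sign. In the KE contrast Ctsb was at -0.31 ± 0.45, Ctsz at -0.79 ± 2.42, Ctss at -1.83 ± 0.55, Ctsc at -2.15 ± 0.50, Ctsl at -3.48 ± 2.63 and Ctsh at 3.409 ± 1.602. In the KO contrast edgeR called no member in this fit. The markers and the genotype moved together in NK cells and cannot be told apart by such a fit.

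WT NK cells were set against WT CD8 T cells. All 8 members lay higher in both NK libraries than in both CD8 libraries, as did 22.9% of all genes. Ctsc was 4.45-fold higher, with a log2 difference of 2.15 ± 0.29 (SE), and was the only member called by edgeR (FDR 0.00586), among 0.785% of all genes. Ctss was at 2.75 ± 0.57 (edgeR FDR 0.0643), Ctsz at 3.61 ± 1.51, Ctsb at 1.07 ± 0.51 and Ctsw at 0.16 ± 0.21. The value of Ctsz ranged from 1.40 to 10.46 over 17 alternatives, the latter without WT CD8 replicate 2. DESeq2 called Ctsc and Ctss, among 6.31% of all genes. The WT NK libraries were part of the contrast that chose Ctsc, so its call here is not independent of that choice. The call was lost without WT NK replicate 2 (edgeR FDR 0.0512), without WT CD8 replicate 2 (log2 difference 1.93, FDR 0.0647) and with the macrophage covariate (FDR 0.412), where the log2 difference was 1.73 ± 0.49. In the fit with that covariate Ctss was at 0.66 ± 0.54, Ctsz at 1.40 ± 2.42, Ctsb at -1.10 ± 0.44 and Ctsw at 0.06 ± 0.38. The macrophage marker sum was at least 16141 CPM in these NK libraries and at most 274 in these CD8 libraries, and its part in the difference was not tested further.

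NK and CD8 T cells were compared in the mutants as well. In KO, Ctsc differed by 0.06 ± 0.28 on the log2 scale between NK and CD8 and Ctsw by 0.75 ± 0.21, higher in NK. edgeR called no member and 0.914% of all genes, with 2 members at an unadjusted p under 0.05. DESeq2 called 1, Ctsh, and 6.18%. That call rests on KO NK replicate 1, with 1506 counts against 2 in replicate 2, and without replicate 1 the edgeR log2 difference of Ctsh was 0.27. In KE, Ctsc differed by -0.36 ± 0.28, Ctsb by -1.39 ± 0.52 and Ctsw by 0.31 ± 0.21. There edgeR called no member and 0.8% of all genes, with 1 member at an unadjusted p under 0.05, and DESeq2 called no member and 6.08%. The KE NK libraries were part of the choice of Ctsc, and its value in KE is likewise a description.

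In CD8 T cells, whose libraries played no role in the choice, no cathepsin passed the test in either mutant. In KO against WT, Ctsc was at 0.16 ± 0.28 (SE) on the log2 scale, Ctsw at -0.07 ± 0.21 and Ctss at -0.68 ± 0.53. edgeR called no member and 0.0533% of all genes, with 1 member at an unadjusted p under 0.05, and DESeq2 called no member and 1.75%. Ctsh was the member whose KO libraries lay below both WT libraries, beside 13.9% of all genes, but its values were 0.0754 and 0.169 CPM against 1.70 and 14.1, so that both KO libraries were under the floor. In KE against WT, Ctsc was at -0.06 ± 0.28, Ctss at -0.49 ± 0.53 and Ctsw at 0.48 ± 0.21. edgeR called no member and 0.0838% of all genes, again with 1 at an unadjusted p under 0.05, and DESeq2 called none and 2.5%.

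Ctsw was the member of that unadjusted p in KE CD8 T cells (edgeR FDR 0.793). Both KE CD8 libraries lay above both WT CD8 libraries, which 17.4% of all genes did, while 15% lay below, Ctsl among them. Ctsw was at 0.63 in KE and 0.52 in KO NK cells and at 0.48 in KE CD8 T cells. In KO against KE CD8 T cells it was at -0.55 ± 0.21 (SE). In that comparison edgeR called no member and 0% of all genes, with 2 members at an unadjusted p under 0.05, and DESeq2 called none and 1.19%.

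The difference between the KO effect in NK and in CD8 cells was tested as an interaction. It was -2.09 ± 0.40 (SE, log2) for Ctsc, -1.96 ± 0.72 for Ctsb, -1.79 ± 0.75 for Ctss and 0.59 ± 0.29 for Ctsw. edgeR called no member (FDR 0.382 for Ctsc) and 0.0152% of all genes, with 3 members at an unadjusted p under 0.05. DESeq2 called Ctsc, among 1.49% of all genes. The KO interaction rests on the WT NK libraries too, so the values of Ctsc are not independent of its choice. Without KO NK replicate 1 the value of Ctss was -3.00 and without replicate 2 it was -1.14, and that of Ctsb ranged from -3.46 to -0.82 over 17 alternatives. The interaction of KE contains the contrast that chose Ctsc and is given as a description: -2.51 ± 0.40 for Ctsc and -3.41 ± 0.77 for Ctss, with 0% of all genes called by edgeR and 2.11% by DESeq2.

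Granzymes and perforin, the granule cargo that cathepsin C and its neighbours meet, were taken from a list of 17 granule proteases and carriers, of which 12 were tested. edgeR called none of the 12 in KO or KE, in NK or CD8 cells. DESeq2 called none in KO NK, 1 in KE NK (Gzmb), 1 in KO CD8 (Gzmd) and 4 in KE CD8 cells (Gzmd, Gzme, Gzmf and Gzmk). Over all genes DESeq2 called 2.84%, 2.94%, 1.75% and 2.5% in these 4 comparisons, and 6.35%, 6.06%, 4.84% and 5.62% had an unadjusted p under 0.05 in edgeR, which is the background for the inhibitor and lysosomal lists too. In KO NK cells 9 lay lower and 2 higher, 2 of them at an unadjusted p under 0.05, with a list median of -0.62 beside -0.01 over all genes. KE NK cells had 6 lower and 5 higher, and 3 of these had an unadjusted p under 0.05. In KO CD8 cells 8 lay lower and 4 higher, with 2 at an unadjusted p under 0.05 and a median of -0.68 beside 0, and in KE CD8 cells 7 lay lower and 5 higher, with 6 at an unadjusted p under 0.05.

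Gzma, Gzmb and Prf1 are named as the best known cargo and were chosen after their values were seen. Gzmb, which encodes a granzyme that cathepsin C activates, was 6754 and 4868 CPM in WT NK libraries, 1865 and 1431 in KO, and 931 and 2057 in KE. Its CD8 values were 11673 and 8845 in WT, 2538 and 2694 in KO, then 1049 and 4738 in KE. Unlike Ctsc, Gzmb thus had its mutant libraries below its WT libraries in both cell types. Its log2 fold change was -1.92 ± 0.59 (SE) in KO NK and -2.07 ± 0.59 in KO CD8 cells (edgeR FDR 0.635 and 0.803).

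Gzma, granzyme A, was 8804 and 9611 CPM in WT NK libraries, 7253 and 7712 in KO and 6851 and 6017 in KE. It ranged from 16.9 to 5694 in CD8 libraries. Prf1, the pore-forming protein, was at -0.83 ± 0.50 (SE, log2) in KO and also -0.83 ± 0.50 in KE NK cells. Gzmk, the one list member called between WT NK and WT CD8 cells (edgeR FDR 0.00492, log2 difference -4.27 ± 0.56), was 59.4 and 35.6 CPM in NK and 967 and 779 in CD8 libraries, and was likewise named after its value was seen.

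The granule genes with the largest fitted changes were low or uneven between replicates. Gzmc was 428 and 1744 CPM in WT NK, 533 and 39.2 in KO and 84.3 and 1455 in KE libraries. Among CD8 libraries Gzmf was 0.339 and 0.705 in WT, 0.829 and 77.5 in KO, then 0.332 and 1679 in KE. Gzme was 224 and Gzmd 113 in that last library. Cma1, a chymase of mast cells, was 0.0808 and 8.45 in WT NK, 14.6 and 55.6 in KO and 27.8 and 18.8 in KE libraries.

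Inhibitors of cathepsins and granule proteases form the counterpart of the family. Of 25 listed genes 11 were tested, and edgeR called none in any mutant comparison. DESeq2 called 2 in KO NK (Serpinb1a and, named after its call was seen, Serpinb6b), 2 in KE NK (Cst3 and Serpinb1a), none in KO CD8 and 1 in KE CD8 cells (Serpinb1a). In KO NK cells all 11 lay lower, 4 at an unadjusted p under 0.05, with a median log2 fold change of -0.68 beside -0.01 over all genes. The 22 macrophage markers had a median of -2.83 in the same comparison, and their part in the list's values was not tested. KE NK cells had 9 lower and 2 higher, 3 of the lower at an unadjusted p under 0.05. In KO CD8 cells 6 lay lower and 5 higher and none reached an unadjusted p under 0.05, and in KE CD8 cells 5 lay lower and 6 higher with 1 at such a p. Serpinb1a, an inhibitor of neutrophil-type serine proteases and of cathepsin G, was 40.1 and 22.3 CPM in WT NK and 0 in both KO libraries. Against the floor of 3 counts per library the KO mean was at least 130-fold lower.

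In KE NK libraries Serpinb1a was 0 and 0.0785 CPM. Its CD8 values were 117 and 105 in WT, 28.8 and 33.1 in KO, then 0.166 and 0 in KE. The KE CD8 libraries were thus as empty as the mutant NK libraries, while the KO CD8 libraries held an intermediate level. In edgeR the FDR was 0.196 for KO NK, 0.888 for KO CD8 and 0.0792 for KE CD8 cells. Serpinb9b, related to the granzyme B inhibitor, was 143 and 258 CPM in WT NK, 175 and 115 in KO and 102 and 56.4 in KE libraries. Serpinb6a, an intracellular inhibitor of several serine proteases, was 106 and 25.2, 26.5 and 0.945, and 42.8 and 24.9 in the same order.

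The cystatins are the classical inhibitors of cysteine cathepsins, and 3 of them are given for their role, chosen after their values were seen. Cst3, which encodes the secreted cystatin C, was 544 and 548 CPM in WT NK, 342 and 133 in KO and 225 and 218 in KE libraries, against 170 to 327 in CD8 T cells. Cst7, which encodes cystatin F, the inhibitor that reaches lymphocyte granules and acts on cathepsin C, was 608 and 669 in WT NK, 664 and 426 in KO and 604 and 646 in KE libraries. Cystatin F RNA therefore overlapped between genotypes in NK cells, where Ctsc did not. Cstb, the cytosolic cystatin B, was 159 and 162, 195 and 116, and 87.4 and 96.8.

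Lysosomal sorting and hydrolase genes were compared as the wider compartment. Of 32 listed, 31 were tested and edgeR called none in any mutant comparison. DESeq2 called 2 in KO NK, 8 in KE NK, none in KO CD8 and 1 in KE CD8 cells (Glb1). In KO NK cells 27 lay lower and 4 higher, 10 of the lower at an unadjusted p under 0.05, with a median log2 fold change of -1.22. KE NK cells had 26 lower and 5 higher, 11 of the lower at an unadjusted p under 0.05, with a median of -1.27. In KO CD8 cells 19 lay lower and 12 higher with a median of -0.20 and 4 at an unadjusted p under 0.05, and in KE CD8 cells 14 lay lower and 17 higher with a median of 0.07 and 3 at such a p. In WT NK against WT CD8 cells 29 lay higher and 2 lower with a median of 1.61. The monocyte and macrophage markers themselves had a median of 5.88 in that comparison, -2.83 in KO NK cells and -6.15 in KE NK cells. Over all genes the medians were 0, -0.01 and 0 in the same order. The part of the markers in the list's values was not tested.

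Within that list Lgmn, the legumain protease that processes cathepsin precursors, was 1032 and 1279 CPM in WT NK, 266 and 0.472 in KO and 15.2 and 3.92 in KE libraries, and 0.980 to 46.9 in CD8 T cells. Cd74, the invariant chain that cathepsin S cleaves, was 1185 and 3203 in WT NK, 2135 and 110 in KO and 17.0 and 158 in KE libraries. Cd63, a membrane protein of late endosomes, was 271 and 112, 41.5 and 0.0787, and 0 and 26.0. All 3 had KO replicate 1 far above KO replicate 2, as the macrophage markers did. Glb1, the lysosomal beta-galactosidase, went another way in CD8 T cells, at 24.3 and 24.2 in WT, 74.4 and 56.7 in KO, then 177 and 71.5 in KE (edgeR FDR 0.888 and 0.357).

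Gaa, the lysosomal alpha-glucosidase, and Tfe3, a regulator of lysosomal genes, had the largest fitted changes of the list in KO CD8 T cells. Gaa was 5.50 and 0 CPM in WT CD8 and 20.0 and 24.9 in KO CD8 libraries. Tfe3 was 9.43 and 0.776 against 41.8 and 7.10. Neither passed the test.

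The genes whose RNA was most like a member's were ranked by Pearson's r of log2 CPM over the 12 libraries, among 8487 genes with a mean of at least 10 CPM. The libraries share groups and sorts, so these are descriptions. Ctsc was most like Rab3il1 (r = 0.958), Ms4a14 (0.935) and Siglec1 (0.929), the last a receptor of macrophages. Siglec1 averaged 64.9 CPM in WT NK and 0.0811 in KO NK libraries, and Ms4a14 86.5 and 0.0394. These genes were near 0 in all groups but WT NK, whereas Ctsc kept at least 270 CPM in every library.

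Ctsw was most like Rnf187 (r = 0.924), Herpud1 (0.888) and Ddx55 (0.888). Rnf187 averaged 217 CPM in WT, 305 in KO and 381 in KE NK libraries. Ctsb was most like Fabp5 (0.926), Ms4a6d (0.916) and Jkamp (0.908). Fabp5 and Ms4a6d are genes of macrophages and other myeloid cells, though Fabp5 is also found elsewhere. With the summed macrophage markers on a log2 scale r was 0.820 for Ctsc, 0.518 for Ctsb and 0.192 for Ctsw over the 12 libraries. The CD8 libraries combined 770 CPM or more of Ctsb with few markers.

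The members can be set apart by measured behaviour rather than by name. Between its lowest and highest library Ctsd differed 2.17-fold, Ctsw 2.48-fold, Ctsc 6.28-fold, Ctsb 9.76-fold and Ctss 19.4-fold. Ctsz, Ctsl and Ctsh reached values at or near the floor in at least 1 library. Ctsw, Ctsd and Ctsc differed little between the KO NK replicates, unlike the other 5. Some macrophage genes, such as Csf1r, were at or under the floor in both of these replicates, so this does not set a member apart from them. Ctsc was nevertheless at its highest in the 2 libraries with the most macrophage RNA, and the RNA of its most similar genes was near 0 in the other groups. Ctsb, Ctsh, Ctsl, Ctss and Ctsz were highest in those 2 libraries as well.

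Of the other cathepsins, Ctsa, a lysosomal carboxypeptidase, averaged 702 ± 117 CPM (SD, n = 2) in WT, 366 ± 66.8 in KO and 295 ± 33.8 in KE NK cells. Its log2 fold change in KO NK cells was -1.05 ± 0.41 (SE, edgeR FDR 0.766). Ctso, a lysosomal cysteine protease, averaged 100.1 ± 73.2, 102 ± 14.7 and 131 ± 12.96 in the same groups, and Ctse, an aspartic protease of immune and gastric cells, 45.6 ± 24.5, 24.2 ± 29.8 and 42.4 ± 9.07. Ctsg, the neutrophil cathepsin that cathepsin C activates, had 0 counts in every library, as did Ctsk and Ctsf.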

How the data were processed

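Polyadenylated RNA of 300 sorted cells per library was amplified by Smart-seq2 and sequenced as 50-base single-end reads. The authors trimmed the reads with Trimmomatic 0.32, aligned them to GRCm38 with STAR 2.7.1, left out reads with several alignments, and counted exon overlaps with GenomicAlignments 1.6.3. The deposited values are raw counts per gene, neither normalized nor pooled, in 12 columns. Genes with near-identical copies may be undercounted for that reason. Molecular identifiers are not mentioned, and floors cover counting error only.

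The test was that of edgeR 4.0.16 under R 4.3.3 (TMM, robust quasi-likelihood F-test, two-sided, 12 libraries, a mean per group) on genes with a mean size-factor-normalized count of at least 10. The FDR is the Benjamini-Hochberg adjusted p over the whole set of tested genes. The common biological coefficient of variation was 109%. Calls needed FDR under 0.05 with a log2 fold change of 1 or more in size. Standard errors were computed from each log2 fold change and its F statistic. DESeq2 1.42.0 was the alternative. CPM used library totals, RPKM the union of exons of GENCODE, and log2 CPM a prior count of 2.

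The members and gene lists were chosen with earlier results of these data known. Named beyond the 8 members were tested cathepsins, the 2 genes of the inhibitor, granule and lysosomal lists with the largest fold change in each mutant comparison (mean of at least 10 CPM), the 3 genes most correlated with Ctsc, Ctsw and Ctsb, and genes said to be chosen after their values were seen. Alternatives were size-factor normalization, no filter, single cell types, a replicate block, a macrophage covariate and each library left out. Marker lists for B cells, stromal cells, T cells and NK cells were summed as checks of the sort, beside those for macrophages, neutrophils, dendritic cells and tumour epithelium. The names of some genes called by DESeq2 in the lysosomal list are not reported here.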

Additional observations from a re-analysis of the deposited data

How the results depend on the processing

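The common biological coefficient of variation was 109%, every group had 2 libraries, and the floor of 3 counts was 0.204 to 0.289 CPM. At this spread a missed threshold leaves sizeable differences possible, above all for Ctsh, Ctsl and Ctsz. Of 561 refits of 31 log2 fold changes, 518 kept their direction and their side of the threshold, 28 moved past it, 3 fell short of it and 12 changed sign. RPKM with TMM-scaled totals changed the rank of 0 members. Where no cause is named, the cause was not tested.

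The number of members called by edgeR was 1 for WT NK against WT CD8 T cells and 0 in the other 8 comparisons. With no filter it was 6 there, 2 between NK and CD8 in KO, 1 in KE, 5 for KO against WT NK and 2 for KO against KE NK. It was 1 in each of the 3 CD8 comparisons and 3 for the KO interaction. That fit gave smaller SEs for every member but Ctsc in WT NK against WT CD8. There the SE of Ctsz was 0.50 instead of 1.51, that of Ctsh 0.87 instead of 2.24 and that of Ctsc 0.32 instead of 0.29. DESeq2 over all 12 libraries called 2 for WT NK against WT CD8, 1 between NK and CD8 in KO, 3 for KO against WT NK and 1 for the KO interaction. DESeq2 on 1 cell type called 3 for KO against WT NK and 1 for KO against KE CD8. The macrophage covariate gave 0 for WT NK against WT CD8 and 1 between NK and CD8 in KO.

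KE against WT NK, the contrast that chose Ctsc, and its interaction are left out of these counts. Of 186 refits of their 10 log2 fold changes, given as values, 175 moved by less than 1 SE, 10 by more and 1 changed sign.

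Leaving out 1 library gave 0 to 2 members called for WT NK against WT CD8 (0 without WT NK replicate 2, and 2 without KO NK replicate 1 or replicate 2), and the 1 called without WT CD8 replicate 2 was Ctsz, not Ctsc. It gave 0 to 1 between NK and CD8 in KO and in KE, and 0 to 1 for KO against WT NK and for the KO interaction (1 without KO NK replicate 1).

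With the macrophage covariate the log2 fold change of Ctsd in KO against WT NK cells was 0.084, that of Ctsh 3.15 in KO and 3.41 in KE against WT NK cells, that of Ctsb in WT NK against WT CD8 -1.10 and that of Ctsc between NK and CD8 in KO -0.066, each of the opposite sign to the value without it. Leaving out libraries moved Ctsc between NK and CD8 in KO from -0.25 to 0.55. In CD8 T cells the ranges were -0.30 to 0.49 for Ctsc and -0.40 to 0.19 for Ctsw in KO, and -0.30 to 0.24 for Ctsc and -0.98 to 0.12 for Ctss in KE.

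The labels give the groups the same replicate numbers without saying that a number is a shared mouse or day. Deviations of same-numbered libraries from their group means correlated between -0.03 and 0.04 over 15 pairs of groups, so the numbers were not taken as pairs. A fit with the replicate block called 1 member for WT NK against WT CD8 (Ctsc, 2.19) and 0 in those 8 others, as without the block.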
